A study of Bos taurus with 42 samples.

Results

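Cattle blastocysts made by in vitro fertilisation (IVF) were compared with cells derived from IVF blastocysts by their small non-coding RNAs (sncRNAs). The comparison takes 7 of the 42 libraries of the study, chosen by their labels: 3 libraries of IVF blastocysts (replicates 2, 3 and 4) and 4 of IVF blastocyst-derived cells (replicates 1 to 4), called derived cells below. All 12345 annotated sequences of the deposited table, called entries here, were used. Eggs were fertilised with frozen semen of a Holstein bull, and the zygotes grew on a layer of bovine cumulus cells in SOFaa medium with 3% FBS. Blastocysts were taken on day 8 in pools of 20 embryos. Genotype and allele details are not labelled for either group, and the sources used here do not give how the derived cells were grown, for how long, or which cells of the blastocyst they came from. RNA shorter than 200 nt went into Ion Proton sequencing. Nothing states that the derived-cell libraries came from separate cultures, so p-values measure the spread between these libraries.

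A blastocyst holds an outer trophectoderm, which forms placenta, and an inner cell mass, which forms the embryo. miRNAs are short RNAs that guide Argonaute proteins to messenger RNAs and lower their output. piRNAs guide PIWI proteins against transposons and are made chiefly in germ cells, so an early embryo carries a maternal supply. Fragments of tRNAs arise when transfer RNAs are cut, for instance at the anticodon loop, which gives long 5′ and 3′ fragments, or within the arms, which gives shorter tRFs.

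The reads behind the table were 247926, 263500 and 790043 in blastocyst libraries 2, 3 and 4, and 727745, 1889661, 1641365 and 3033890 in derived-cell libraries 1 to 4. Derived cells held fewer entries although 3 of the 4 libraries had more reads than any blastocyst library: 2945, 3175 and 3886 in blastocysts against 1090, 1238, 1313 and 1345 in derived cells. One library of the study, of cloned (nuclear transfer, NT) 2-cell embryos, holds every entry of the table, so an RNA absent from that library is not listed. Levels are given as normalised reads, that is reads divided by the size factor of the library, and differences as derived cells minus blastocysts on the deposited variance-stabilised log2 scale, which compresses low values.

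Derived-cell library 2 stood apart from the other 3. Over the 318 miRNA entries tested, its mean Pearson correlation with the other derived-cell libraries was 0.709, against 0.861 to 0.869 for each of the others with its group. Its mean correlation with the 3 ear fibroblast libraries of the study was 0.838, against 0.643 to 0.708 for derived-cell libraries 1, 3 and 4. These correlations run across miRNAs that share libraries and scaling and are a description. A different cell type in this library and a mix-up of samples cannot be told apart here, and this bears on every value of library 2. Where leaving it out ended a call named below or moved a count of calls in a list by over 1.5 times, both values are given.

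The makeup of the small RNA pool was the first comparison. miRNA reads made up 18.0%, 9.88% and 10.4% of the listed reads in blastocysts, and 45.1%, 49.6%, 80.6% and 81.8% in derived cells. piRNA reads went the other way, from 32.2%, 29.4% and 20.8% in blastocysts to 0.194%, 0.242%, 0.158% and 0.0768% in derived cells. The groups did not overlap for either class. The mean miRNA share was 12.8% ± 4.55 (SD, n = 3) in blastocysts and 64.3% ± 19.6 (n = 4) in derived cells, and the mean piRNA share 27.5% ± 5.97 and 0.168% ± 0.0696. For both, the two-sided exact permutation p was 0.0286, the smallest that the 35 divisions of 7 libraries allow, and 0.0514 after Benjamini-Hochberg adjustment over the 9 classes, which misses 0.05.

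**Figure D1:**
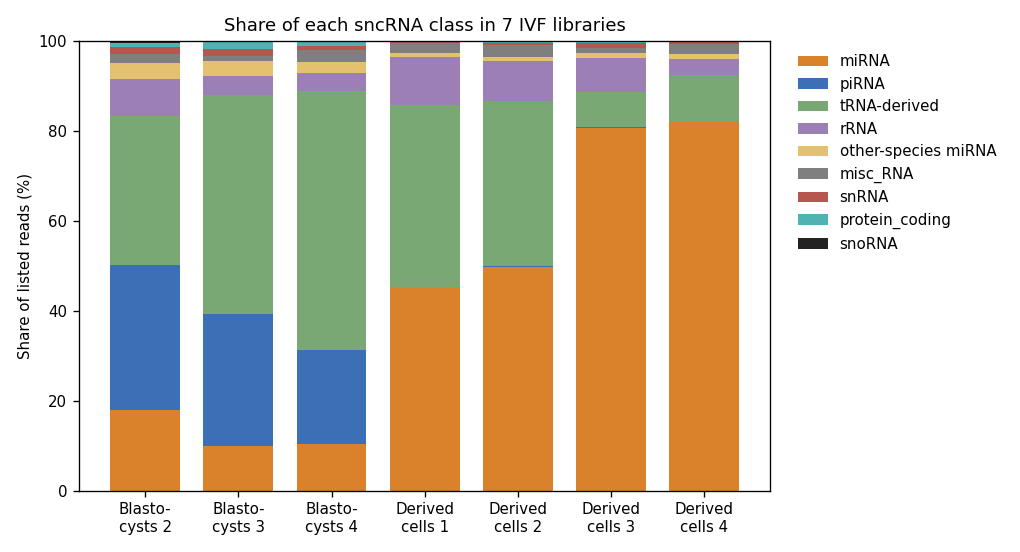
Share of listed reads (%) of each sncRNA class in the 7 libraries, 1 stacked bar per library. piRNA reads hold 20.8% to 32.2% of the 3 blastocyst bars and under 1% of the 4 derived-cell bars, while miRNA reads hold 45.1% or more of every derived-cell bar.

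Fragments of tRNAs divided the derived-cell libraries. They held 40.3%, 36.8%, 7.92% and 10.4% of the reads in derived-cell libraries 1 to 4, and 32.9%, 48.6% and 57.6% in blastocysts. The range of derived cells overlapped that of blastocysts (exact permutation p = 0.171, adjusted p = 0.22). Libraries 1 and 2 were thus rich in tRNA fragments and libraries 3 and 4 in miRNAs. Among the smaller classes, snoRNA reads were 0.422% ± 0.137 (SD, n = 3) in blastocysts and 0.265% ± 0.037 (n = 4) in derived cells, reads on protein-coding genes 1.014% ± 0.406 and 0.211% ± 0.121, and reads annotated only to miRNAs of other species 3.097% ± 0.723 and 0.952% ± 0.19. These 3 also had no overlap and an adjusted p of 0.0514 (exact permutation). Shares of snRNA, rRNA and the mixed class that holds 7SK and Y RNA overlapped.

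Entry by entry, 2132 passed the filter on low values and were tested with limma. Derived cells had 1240 lower (58.2% of those tested) and 203 higher (9.52%) at an adjusted p under 0.05. The lower calls were mostly piRNA entries, at 815, and the higher calls mostly miRNA entries, at 141. The median difference over all tested entries was -1.56. Of the lower calls, 1050 were entries that passed the filter through the 3 blastocyst libraries alone, so they had to differ and their number is no measure of how general the decrease was. Likewise 54 entries passed through derived cells alone, and 43 of them were called higher. The 1050 entries shared the adjustment with all others, which makes the adjusted p-values of the rest smaller, those of miRNAs included. In pooled cells, fewer cells of a type and less of an RNA per cell cannot be told apart.

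piRNAs, the main class of the decrease, were nearly absent from derived cells. Of 9474 piRNA entries, 833 were tested, 815 were lower and 1 was higher. In derived cells 790 of the 833 had no read in any of the 4 libraries. Blastocyst libraries held 1596, 1815 and 2232 piRNA entries, and derived cells 39, 48, 48 and 58. Most blastocyst piRNA reads came from 5 clusters, which held 75.3%, 73.7% and 76.5% of the piRNA reads of libraries 2, 3 and 4. These clusters gave 60136, 57051 and 125474 reads there, and 3, 0, 2 and 19 reads in derived cells.

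The main source was a cluster on chromosome 6 (chr6:110178897-110333441, build UMD3.1 as the table names it), with 34.1%, 32.5% and 34.8% of the piRNA reads in blastocysts. The share of each major cluster varied little between blastocyst pools. Clusters on chromosome 23 (chr23:13905000-14137856) and chromosome 17 (chr17:62734087-62862016) held 16.7% ± 0.58 and 16.6% ± 0.332 (SD, n = 3). The most abundant entry of the chromosome 6 cluster had 26656, 25990 and 21665 normalised reads in blastocysts and 0, 0, 0 and 1.85 in derived cells (limma adjusted p = 2.1e-06). That last value stands for 11 reads in the deepest library.

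The few piRNA-annotated reads in derived cells came mostly from other clusters. A cluster on chromosome 14 (chr14:476023-487893) gave 34.4%, 28.8%, 18.3% and 10.7% of the piRNA reads of derived-cell libraries 1 to 4, against 0.133% ± 0.0335 (SD, n = 3) in blastocysts. Its level overlapped between the groups, at 153, 102 and 82.2 normalised reads in blastocysts and 128, 161, 138 and 41.9 in derived cells. It was followed by clusters on chromosome 3 (chr3:80674203-80680024), with 31.7%, 23.4%, 2.46% and 6.61%, and on chromosome 13 (chr13:12156089-12165941), with 1.91%, 7.91%, 26.4% and 11.8%. The order of these clusters differed from library to library. The 1 entry called higher lies in a cluster on chromosome 19 (chr19:44616212-44624700), carries a mismatch to the annotation, and had 2.23, 0 and 1.75 normalised reads in blastocysts and 5.27, 5.53, 18.3 and 3.87 in derived cells (difference 1.36 ± 0.47 SE, limma adjusted p = 0.0339).

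For miRNAs, 379 entries matched a bovine miRNA without a mismatch, for 218 miRNA names, and 318 of them were tested. Derived cells had 104 higher (32.7%) and 24 lower (7.55%), with a median difference of 1.36. Because the miRNA class as a whole took a larger share of derived-cell reads, the same entries were also compared as CPM of miRNA reads, a scale chosen after the data were seen. On it 37 were higher and 75 lower. Adjustment on that scale, here and below, ran over miRNA entries alone, those with a mismatch included, and not over all 2132. At an unadjusted limma p under 0.05 were 157 of the 318 entries on it and 147 on the deposited scale. All 37 were among the 104, and all 24 lower entries were lower on both scales, while the remaining 51 lower entries had no call on the deposited scale. No entry was called in opposite directions on these 2 scales. After median centring, a scaling that moved the median over all entries from -1.56 to 0.70, 272 were higher and 1 was lower, and 13 of the 24 lower entries had positive differences.

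The 3 largest increases were in miRNAs known from fibroblasts, smooth muscle and other mesenchymal cells. miR-199a-5p, made in mesenchymal cells from a transcript antisense to a dynamin gene, had 0, 0 and 3.50 normalised reads in blastocysts and 370, 467, 2015 and 1486 in derived cells, a difference of 7.84 ± 0.78 (SE, limma adjusted p = 5.9e-05). miR-145 had 10.0, 0 and 6.55 reads in blastocysts and 394, 5730, 1495 and 2243 in derived cells (7.79 ± 1.03, adjusted p = 0.00028). miR-143-3p, from the same primary transcript as miR-145, had 2.23, 2.34 and 0 in blastocysts and 234, 1995, 940 and 1429 in derived cells (7.57 ± 0.81, adjusted p = 8.8e-05). All 3 were near the detection limit in every blastocyst pool and at 234 or more in every derived-cell library, with derived-cell library 2 highest for miR-145 and miR-143-3p. miR-214-3p, which shares a transcript with miR-199a in mammals, had 10.0, 5.86 and 10.5 in blastocysts and 145, 327, 1812 and 1609 in derived cells (5.54 ± 0.95, adjusted p = 0.0012).

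**Figure D2:**
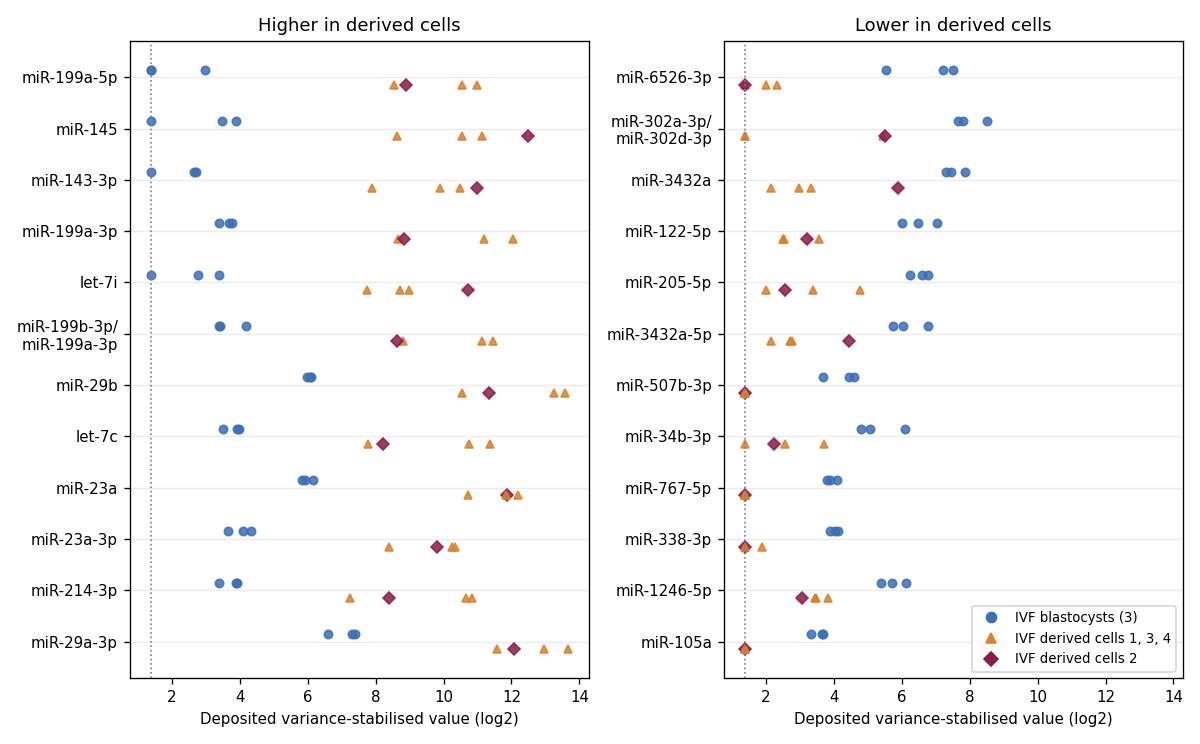
Deposited variance-stabilised value (log2) in each library of the 12 miRNA entries with the largest called increase (left) and the 12 with the largest called decrease (right). Circles are the 3 blastocyst libraries, triangles and diamonds the 4 derived-cell libraries, and the dotted line is the value of an entry with no read. The groups do not overlap for any of the 24. The 24 were chosen for large called changes, and 68.0% of all 2132 tested entries did not overlap.

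Of the 29 tested entries of the fibroblast and mesenchymal list, 21 were higher and none lower, with a median of 4.02. The 8 not called were entries of miR-10b, miR-31, miR-152 and miR-199b. They ran from -1.47 for miR-10b-5p and -0.15 for miR-10b to 3.76 for miR-31-5p. As CPM of miRNA reads 11 of the 29 were higher and 1 lower. The normalised reads of the list summed to 3543 to 4514 in blastocysts and 19398 to 124618 in derived cells, beside 4132 to 43146 in fibroblasts. miR-21-5p, a miRNA abundant in growing and cultured cells, was the most abundant miRNA of both groups. It had 3774, 2998 and 2964 normalised reads in blastocysts and 12350, 12979, 77836 and 83526 in derived cells (3.31 ± 0.82, limma adjusted p = 0.0081). Libraries 3 and 4 were the high ones. It held 7.59% to 9.83% of the miRNA reads of blastocysts and 11.3% to 20.3% of those of derived cells. As CPM of miRNA reads its difference of 0.91 missed the threshold (limma adjusted p = 0.059, over miRNA entries alone). miR-125b rose from 135, 59.8 and 127 to 639, 2417, 7955 and 6498 (4.82 ± 0.94, adjusted p = 0.0023). miR-221 rose from 27.9, 28.1 and 39.8 to 467, 2853, 961 and 650 (4.72 ± 0.68, adjusted p = 0.00044).

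The let-7 family, which accumulates as cells differentiate and restrains Lin28 and Ras, rose almost as a block. Of 19 tested entries 17 were higher and none lower, with a median of 4.04. let-7i had 0, 5.86 and 2.62 normalised reads in blastocysts and 207, 1669, 418 and 498 in derived cells (6.53 ± 0.81, limma adjusted p = 0.0002). let-7a-5p, the most abundant member, had 105, 141 and 91.3 against 360, 4630, 4411 and 2941 (4.23 ± 0.95, adjusted p = 0.0049). The entries that were not called were the 2 forms of let-7f-5p, at 2.88 and 2.71. Library 1 was the lowest derived-cell library for let-7a-5p and library 2 the highest, and summed over the family the reads were 2216, 18061, 22670 and 15842 in derived-cell libraries 1 to 4 against 354, 533 and 367 in blastocysts. As CPM of miRNA reads 8 of the 19 were higher and none lower.

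Other increases came in small families. All 3 tested entries of the miR-29 family, which targets collagen messages, were higher: miR-29b went from 63.6, 62.1 and 58.1 to 1480, 2589, 9666 and 12232 (6.12 ± 0.82, limma adjusted p = 0.0003). miR-29a-3p went from 91.4, 152 and 162 to 3011, 4281, 12939 and 7910 (5.47 ± 0.61, adjusted p = 0.00011). Both tested entries of miR-181a were higher, at 5.08 and 4.92. Of 12 entries of miR-23, miR-24 and miR-27, which are made from shared transcripts, 10 were higher, and miR-23a went from 65.8, 51.6 and 55.9 to 1677, 3731, 4680 and 3691 (5.69 ± 0.49, adjusted p = 2.9e-05). This entry had the smallest standard error of the 12 largest increases.

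miRNAs whose genes lie side by side often come from 1 transcript. Among 22 sets of tested miRNAs with RefSeq genes within 10000 bases of each other, the differences had one sign in 17, beside a median of 1.36 over all miRNA entries, and this was not tested. The sets with the largest medians were miR-143 and miR-145 (3 of 3 entries higher), miR-23a and miR-27a (3 of 3), let-7c and miR-99a (3 of 3), miR-221 and miR-222 (4 of 4), and miR-23b and miR-27b (3 of 3). At the other end, miR-105a and miR-767, neighbours on the X chromosome, were both lower. Gene positions came from the assembly ARS-UCD2.0, which differs from that of the table, and were used only to find neighbours.

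The miR-17-92 cluster and its paralogs, which promote cell division and make up much of the miRNA pool of early embryos, were abundant in both groups. Of 19 tested entries 2 were higher and 1 lower, with a median of 0.68. Without derived-cell library 2, 7 were higher and 1 lower (median 1.41), and after median centring 14 were higher and none lower. miR-19b, second in abundance in both groups, had 3321, 2043 and 2896 normalised reads in blastocysts and 5452, 4045, 8844 and 12973 in derived cells (1.39 ± 0.51, limma adjusted p = 0.042). This call was near the threshold: it was lost after quantile normalisation (adjusted p = 0.064), and without any single library other than derived-cell library 2 (adjusted p 0.058 to 0.29). miR-20a had 2164, 1338 and 1551 in blastocysts and 706, 138, 5537 and 6533 in derived cells, and was not called (-0.26 ± 1.36, adjusted p = 0.88). Derived-cell libraries 1 and 2 lay below all blastocyst pools and libraries 3 and 4 above them. As CPM of miRNA reads the list summed to 263977 to 286764 in blastocysts and 58038 to 161351 in derived cells, and 7 of 19 entries were lower and none higher on that scale. The sign of the list median therefore depends on the scale: 0.68 on the deposited one, -1.71 as CPM of miRNA reads.

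The decreases were fewer and mostly of miRNAs at low or middling levels. miR-302a-3p and miR-302d-3p, embryonic stem cell miRNAs that share 1 entry here, had 358, 217 and 196 normalised reads in blastocysts and 38.8, 39.8, 0 and 0 in derived cells (-4.56 ± 1.22, limma adjusted p = 0.012). The other 6 names of the pluripotency list had no bovine entry without a mismatch, so that list rests on 1 entry. miR-6526-3p had 144, 41.02 and 177 in blastocysts and 0, 0, 1.16 and 0.505 in derived cells (-4.99 ± 0.54, adjusted p = 9e-05). miR-205-5p, a miRNA of epithelia, had 91.4, 70.3 and 104 in blastocysts and 0.527, 1.84, 22.3 and 5.89 in derived cells (-3.35 ± 0.65, adjusted p = 0.0024). These 3 entries had no derived-cell library within the blastocyst range. Another entry of the epithelial miRNA, miR-205, was not called (-0.77). After median centring the miR-302 entry (-2.31, adjusted p = 0.10) and miR-205-5p (-1.09, adjusted p = 0.11) kept their direction and lost the call, and the miR-302 entry also lost it without blastocyst library 2 (adjusted p = 0.056). miR-767-5p and miR-105a, which share a primary transcript, were at 9.38 to 12.3 and 5.58 to 8.20 in blastocysts and had no read in any derived-cell library.

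miR-3432a, found at 225, 171 and 151 in blastocysts, had 0.791, 54.8, 5.51 and 3.53 in derived cells (-3.94 ± 0.86, limma adjusted p = 0.0043), with library 2 highest. miR-1246-5p fell from 46.8, 64.5 and 37.1 to 6.59, 3.93, 9.57 and 6.39 (-2.28 ± 0.32, adjusted p = 0.0004). Sequences under this name can be fragments of U2 snRNA, and a U2 fragment also fell (below). miRNAs of blood and serum had 0 of 8 tested entries higher and 2 lower: miR-122-5p, a liver miRNA that circulates in serum, went from 83.6, 127 and 59.0 to 7.12, 4.79, 1.74 and 1.68 (-3.56 ± 0.41, adjusted p = 0.00013), and miR-150-5p from 8.92, 19.9 and 11.4 to 0.791, 0, 4.06 and 5.72. Another entry of the liver miRNA, miR-122, was not called (-0.9). The list summed to 88.7 to 212 normalised reads in blastocysts and 15.5 to 31.4 in derived cells, and miR-142 was at 0 in every derived-cell library. The part of RNA from the FBS of the embryo medium in these values was not tested.

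Of the DLK1-DIO3 imprinted cluster, a large group of miRNAs expressed from the maternal chromosome, 9 entries were tested, 5 were lower and none higher. These stand for a part of the cluster: of 58 names in the list 17 were found, in 18 entries. miR-376c-3p had 52.4, 37.5 and 41.5 normalised reads in blastocysts and 10.0, 21.1, 22.9 and 2.02 in derived cells (-1.60 ± 0.57, limma adjusted p = 0.039). miR-380-3p had 30.1, 44.5 and 15.7 against 10.3, 2.95, 7.25 and 0.505 (-1.96 ± 0.54, adjusted p = 0.013). miR-376b-3p did not follow, at 6.69, 3.52 and 3.50 against 18.7, 34.3, 11.3 and 0. Library 4 was the lowest derived-cell library for all 3. After median centring the median of this list was 0.88, and after quantile normalisation 0.53, so that its direction turns with the scaling. The same holds for blood and serum miRNAs, at 1.33 and 0.70.

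Derived-cell library 2 decided the calls of a further set of miRNAs. Without it 158 miRNA entries were higher and 28 lower, against 104 and 24 with it, and 122 of the 128 calls with it were among these. In 61 of the 318 tested entries library 2 lay more than 3 log2 units below the mean of the other derived-cell libraries, and in 4 it lay as far above. The entries that gained a call were led by miR-335, miR-146b, miR-141, miR-31, miR-34c-5p, miR-200c-3p, miR-424-5p and miR-503-5p. miR-503-5p, which slows the cell cycle and shares a transcript with miR-424, had 749, 262 and 449 normalised reads in blastocysts, 3585, 8755 and 13364 in derived-cell libraries 1, 3 and 4, and 30.3 in library 2. Its difference was 4.05 without library 2 (limma adjusted p = 0.0016) and 2.12 with it (adjusted p = 0.38). miR-31-5p had 133, 128 and 97.9 in blastocysts, 1556, 10055 and 12645 in libraries 1, 3 and 4, and 34.1 in library 2 (5.56 without library 2, adjusted p = 0.001).

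The epithelial miRNAs showed the same division. miR-200c and miR-141, neighbours that keep cells epithelial by holding down ZEB1 and ZEB2, were absent from library 2. miR-200c had 92.5, 36.3 and 62.1 normalised reads in blastocysts, 327, 1667 and 2546 in derived-cell libraries 1, 3 and 4, and 0 in library 2, and miR-141 had 12.3, 11.7 and 10.5, then 360, 996 and 2309, and 0. Neither passed with library 2 (limma adjusted p = 0.49 and 0.17). Without it both did, at 4.12 (adjusted p = 0.0042) and 5.87 (adjusted p = 0.00033). Over the epithelial and trophectoderm list, 0 of 10 tested entries were higher and 1 lower with library 2, and 8 were higher and 1 lower without it. The lower entry was miR-205-5p, while miR-205, another entry of that miRNA, was not called with library 2 (-0.77). The tested entries of the list thus did not move as one. Of the 11 names of the list, 5 had a bovine entry without a mismatch. The summed reads of the list were 186 to 302.2 in blastocysts, 1224, 4588 and 8425 in derived-cell libraries 1, 3 and 4, 2.95 in library 2, and 0 to 16.6 in fibroblasts.

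**Figure D3:**
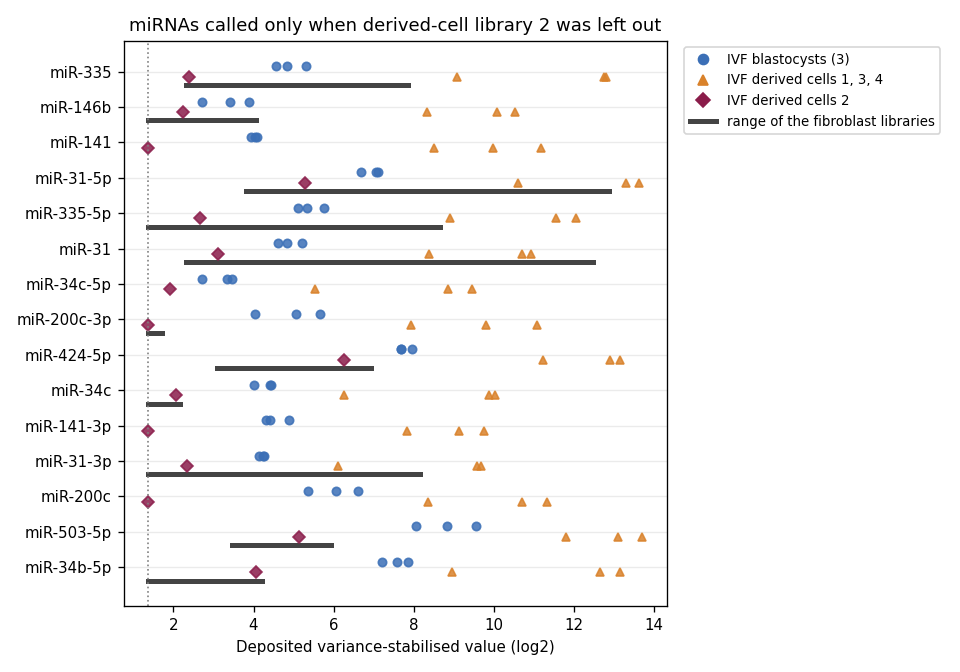
Deposited variance-stabilised value (log2) of the 15 miRNA entries with the largest difference among those called only when derived-cell library 2 was left out. Circles are blastocysts, triangles derived-cell libraries 1, 3 and 4, the diamond library 2, and the grey bar spans the 3 fibroblast libraries. Library 2 lies below every other derived-cell library for each of the 15, and at the value of no read for miR-141 and miR-200c. The way the 15 were chosen favours entries that are low in library 2.

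Library 2 was not low throughout: it was the highest derived-cell library for miR-145, miR-143-3p, let-7i, let-7b and miR-221, with 7547 normalised reads of let-7b against 79.6, 977 and 467. Markers of cumulus and granulosa cells, the feeder layer of the embryos, were 1 of 7 tested entries higher (miR-132-5p, 0 in blastocysts and 1.32 to 3.19 in derived cells) and none lower, and 4 higher without library 2. The sum of that list was 87.9 to 102 in blastocysts, 1075, 11637 and 10002 in derived-cell libraries 1, 3 and 4, and 5.77 in library 2, and most of it was miR-335. miR-202, a granulosa miRNA, was not called: miR-202-5p changed by -0.96 and miR-202 by -0.07. The part of carried-over cumulus cells or fibroblasts in any derived-cell library was not tested.

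The miR-34 and miR-449 family, which acts downstream of p53 and in ciliated cells, was divided. Of 9 tested entries 2 were higher and 2 lower, and 7 higher and 1 lower without derived-cell library 2. miR-34a rose from 468, 226 and 267 normalised reads to 1049, 1871, 3818 and 4764 (2.98 ± 0.65, limma adjusted p = 0.0043). miR-449a went from 55.8, 39.9 and 60.3 to 0.791, 10.6, 19.1 and 24.9 (-1.92 ± 0.67, adjusted p = 0.036, and 0.055 without library 2). The arms of miR-34b had opposite signs, and both were called only without library 2. The 3′ arm fell from 62.4, 28.1 and 22.7 to 0, 0.982, 8.41 and 1.85 (-2.84 ± 0.59, adjusted p = 0.0033, and -2.76 without library 2, adjusted p = 0.0083). The 5′ arm had 226, 142 and 188 in blastocysts and 488, 12.03, 6453 and 9084 in derived cells. It was not called over all 7 libraries (2.16, limma adjusted p = 0.40) and was higher without library 2 (4.04, adjusted p = 0.016). Of 24 miRNAs with both arms tested, 18 had the same sign in both, and none had its arms called in opposite directions over all 7 libraries.

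**Figure D4:**
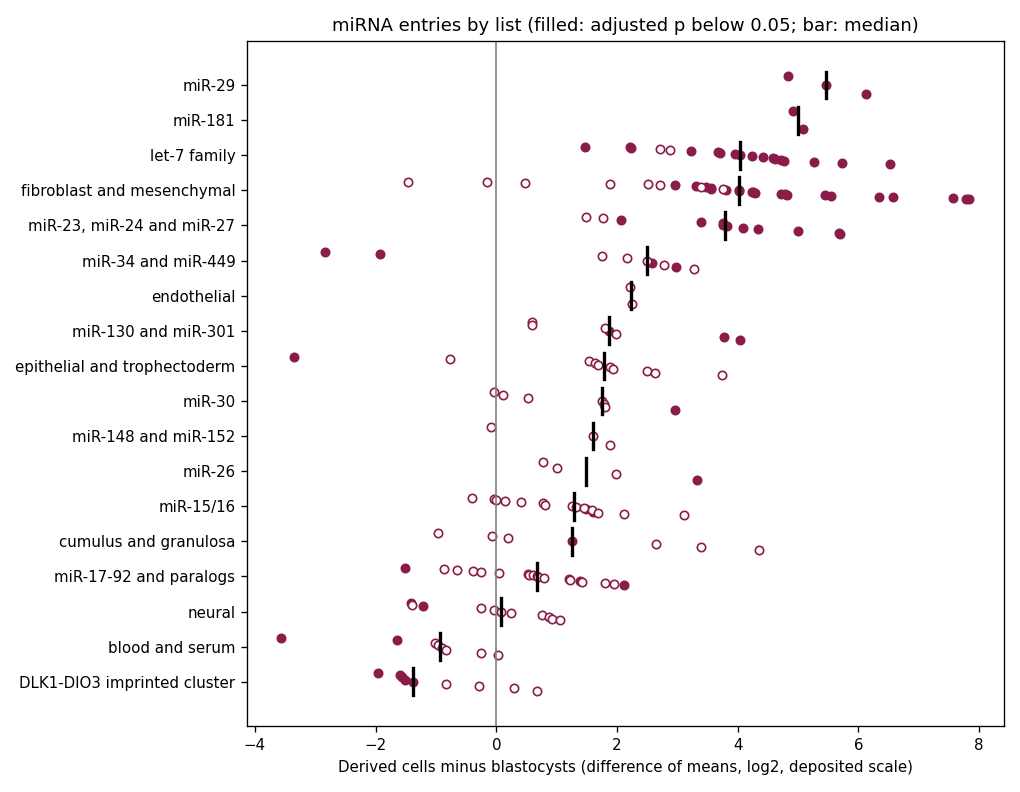
Difference of derived cells minus blastocysts (log2, deposited scale) of every tested miRNA entry, by list. Filled points passed an adjusted p of 0.05, open points did not, and the bar is the median of the list. The let-7, mesenchymal, miR-23/24/27, miR-29 and miR-181 lists lie to the right with most points filled, while the miR-17-92 list straddles 0.

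The remaining lists had few calls over all 7 libraries. The count of higher entries was 2 of 16 for miR-15 and miR-16 relatives, 1 of 7 for miR-30, 1 of 4 for miR-26, 3 of 7 for miR-130 and miR-301, and 0 of 3 for miR-148 and miR-152, with none lower. Without derived-cell library 2 these counts were 5, 4, 2, 5 and 1. The medians of these lists, 1.28 to 1.87, stood beside 1.36 for all miRNA entries tested. miR-130a, one of the higher entries, had 97.0, 62.1 and 88.7 normalised reads in blastocysts and 921, 134, 4525 and 7034 in derived cells (4.04 ± 1.33, limma adjusted p = 0.029). The endothelial miR-126 had 0 of 2 entries called and the muscle miRNAs 0 of 1, and of 11 neural entries none was higher and 2 were lower, miR-138-3p and miR-138. Without library 2 both miR-126 entries were higher, the muscle entry was lower, and 4 neural entries were higher and 2 lower.

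Fragments of tRNAs moved both ways: 45 of 395 tested entries were higher and 153 lower, with a median of -0.62. Of the 395, 66 had no read in any derived-cell library and so passed the filter through blastocysts alone. Of the long 5′ fragments that end at the anticodon 36 of 56 were lower and 1 higher. Those of valine tRNAs summed to 8624, 33104 and 29202 normalised reads in blastocysts and 1771, 928, 863 and 1566 in derived cells. Those of glutamate tRNAs summed to 3993, 6337 and 12255 against 662, 181, 561 and 684, and those of glycine tRNAs, the most abundant, to 22733, 40119 and 59742 against 13873, 10830, 9844 and 18360. No derived-cell library reached the blastocyst range for any of the 3. This was not so for every tRNA. Lysine fragments of this type summed to 6418, 14113 and 15004 against 1575, 1454, 3348 and 6494, and methionine ones also overlapped through library 4. Cysteine ones were higher in every derived-cell library, at 82.1 to 380 against 70.3 to 76.9. The share of all long 5′ fragments among tRNA-derived reads overlapped too (exact permutation, adjusted p = 0.183). Fragments called tRF-1, cut from the 3′ trailer of precursor tRNAs, had 48 of 54 tested entries lower and none higher. Some had no read in any derived-cell library and had to be lower, so this count does not measure how general the decrease was. The tRF-1 share of tRNA-derived reads was 7.63% ± 6.34 (SD, n = 3) in blastocysts and 14.4% ± 4.8 (n = 4) in derived cells, with overlapping ranges (exact permutation, adjusted p = 0.196).

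Short 5′ fragments and 3′ fragments ending in CCA had larger shares in derived cells. 5′ tRFs held 8.64%, 8.08% and 7.54% of the tRNA-derived reads in blastocysts and 37.0%, 48.2%, 11.4% and 13.3% in derived cells, yet by entry 9 of 75 tested were higher and 20 lower. CCA-ended 3′ tRFs held 3.53%, 1.21% and 0.959% against 4.25%, 5.87%, 11.9% and 5.76%, and 20 of 75 tested entries of this type were higher and 1 lower. Neither type overlapped between the groups. The exact permutation p was 0.171 for 5′ tRFs and 0.0571 for CCA-ended 3′ tRFs, and no fragment type passed after adjustment over 8 types (lowest adjusted p = 0.152). Derived-cell libraries 1 and 2, with the largest shares of tRNA-derived reads, also had the largest shares of 5′ tRFs among them.

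**Figure D5:**
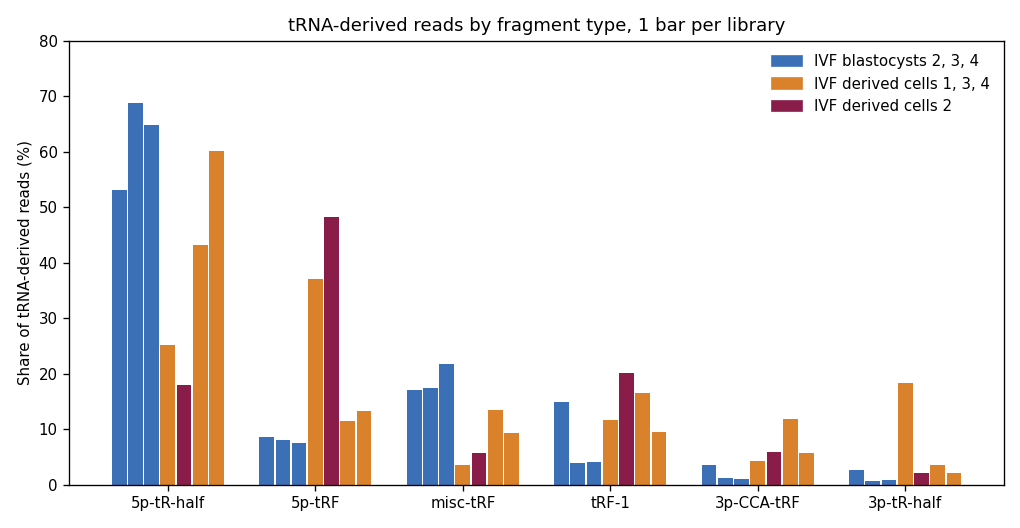
Share of tRNA-derived reads (%) held by 6 fragment types, 1 bar per library, blastocysts in blue and derived cells in orange and purple. 5′ tRFs are above the blastocyst level in each derived-cell library, most in libraries 1 and 2, and the long 5′ fragments (5p-tR-half) are lowest in those same libraries.

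Fragments of serine and glycine tRNAs had the 3 largest called increases of the class. A 5′ tRF of tRNA-Ser with anticodon GCT had 69.1, 77.4 and 98.3 normalised reads in blastocysts and 3720, 3168, 223 and 890 in derived cells (3.86 ± 1.01, limma adjusted p = 0.0104). A 5′ tRF shared by serine tRNAs with anticodons TGA and AGA had 92.5, 53.9 and 100.1 against 2410, 7397, 99.2 and 875 (3.74 ± 1.36, adjusted p = 0.042), with library 3 inside the blastocyst range. Its difference was 2.84 without library 2 (adjusted p = 0.061), and the call was also lost after quantile normalisation (adjusted p = 0.080). All serine tRNA fragments together held 0.231%, 0.107% and 0.128% of tRNA-derived reads in blastocysts and 8.22%, 12.9%, 1.07% and 3.43% in derived cells. A long 3′ fragment of tRNA-Gly with anticodon TCC had 108, 29.3 and 125 against 11438, 964, 406 and 351 (3.82 ± 1.28, adjusted p = 0.031, and 0.080 after quantile normalisation). Library 1 was far above the others for it. The largest decreases were of a fragment from within the same glycine tRNA, at 135, 252 and 108 in blastocysts and 0 in all derived cells, which with a floor of 3 reads in each library is at least 260-fold lower, and of 4 tRF-1 entries that were also at 0 in derived cells.

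Fragments of the other structural RNAs had fewer calls than the whole table, where 58.2% were lower and 9.52% higher, and that balance turns after median centring. Of 69 tested snRNA entries 14 were lower and 2 higher, of 46 snoRNA entries 9 and 2, of 40 rRNA entries 4 and 0, and of 22 entries of the mixed class 7 and 1. A U5 snRNA fragment had 89.2, 92.6 and 91.8 normalised reads in blastocysts and none in derived cells, at least 144-fold lower, while 2 other U5 fragments with no read in blastocysts were higher, at 0.337 to 3.16 in derived cells. Those 2 passed the filter through derived cells alone, on 2 to 12 reads in each library. Without derived-cell library 2, 1 of them no longer passed the filter and had no call. A U2 fragment went from 33.5, 16.4 and 10.9 to 0 in all derived cells, and a 7SK RNA fragment from 69.1, 70.3 and 60.8 to 0. Y RNA was the exception in the mixed class, at 24.5, 0 and 7.87 in blastocysts and 28.7, 64.3, 74.9 and 36.5 in derived cells (2.42 ± 0.82, limma adjusted p = 0.032, 0.058 without derived-cell library 2 and 0.066 as CPM of listed reads). A fragment of U3 snoRNA, which guides cleavage of ribosomal precursor RNA, fell from 219, 189 and 329 to 14.2, 28.7, 132 and 72.0 (-2.26 ± 0.73, adjusted p = 0.027). Without derived-cell library 2 its adjusted p was 0.0503, and after median centring 0.996. Of 105 tested entries on protein-coding genes, 86 were lower and none higher. However, 72 of the 105 had no read in any derived-cell library. Those passed the filter through blastocysts alone and had to be lower, so the count does not measure how general the decrease was.

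The step from blastocyst to derived cells was set against the same step in cloned (NT) embryos, with 4 NT blastocyst libraries and 3 of NT derived cells. Over 3088 entries tested for a difference between the steps, limma called 2 (0.0648%), both more negative in IVF, with 393 at an unadjusted p under 0.05. Both were present in IVF blastocysts alone among the 14 libraries: a tRF-1 entry, at 23.4, 39.9 and 120.2, and a piRNA entry with a mismatch from a cluster on chromosome 10 (chr10:8350209-8359878), at 6.69, 7.03 and 5.24 normalised reads. They thus passed the filter only through the group where they were high, so their calls are no independent support. The mean levels of the leading miRNAs in NT blastocysts and NT derived cells were 1.13 and 1072 for miR-199a-5p, 83.0 and 3752 for miR-29a-3p, 1859 and 50464 for miR-21-5p, and 227 and 6.67 for the miR-302 entry. miR-376b-3p had 8.89 to 51.2 in NT blastocysts and 0 to 0.255 in NT derived cells, against 0 to 34.3 in IVF derived cells, and its difference between the steps was 3.98 (adjusted p = 0.15). An adjusted p above 0.05 does not show that the steps were alike.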

How the data were processed

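Small RNA under 200 nt was measured in 3 libraries of IVF blastocysts and 4 of IVF blastocyst-derived cells, grouped by their labels. The authors trimmed reads with Trim Galore and used DESeq2 with builds bosTau8 and UMD3.1, per the submitters' processing notes. The sources used here give no versions, aligner or counting rule. In the authors' deposited table, values are variance-stabilised log2 levels, made after division by size factors. The lowest value, 1.3675, stands for 0 reads. Undoing the transformation gave whole multiples of 1 step per library for 100% of 188126 values (tolerance 0.01 reads), which gives reads and size factors. The smallest listed value was taken as 2 reads, and the absolute scale of reads rests on that. Reads are those of listed entries, not of whole libraries, and only 116 entries were found in all 42 libraries, so the scaling rests on few. Depth covers counting error only, since reads are not independent molecules.

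Entries exceeding the lowest value by 1 log2 unit in 3 or more of the 7 libraries were tested with limma 3.58.1 in R 4.3.3 (2 groups, intensity trend, residual df 5, prior df 2.09 at the median) and adjusted by Benjamini-Hochberg over all tested entries at 0.05. The 1050 entries that passed through blastocysts alone were part of this adjustment, and make the adjusted p-values of other entries smaller. The fit was tested on simulated data. Shares of reads were compared by two-sided exact permutation tests. The members, lists and naming rule were chosen with earlier results of these data known. Named were the 12 called miRNAs with the largest change in each direction, the 10 most abundant of each group, up to 4 called members and the most abundant of each of 20 miRNA lists, and the leading called entries of other classes. Entries outside this rule, such as miR-141, miR-200c, miR-376b-3p and miR-202, were named after their values were seen. An entry is 1 annotated sequence, and several entries can be forms of 1 miRNA. RefSeq gene symbols matched 208 of 218 miRNA names. Alternatives were other filters, scalings, weights and fits, a replicate block, and leaving out each library.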

Additional observations from a re-analysis of the deposited data

Results flagged for a closer look

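Of 57 sets of 4 derived-cell values examined (class shares, tRNA fragment shares and named miRNAs), 3 had 1 library far from the other 3. Chance alone marks about 1 in 20 such sets. The snRNA share was 1.03% in derived-cell library 3, against 0.277% to 0.302% in the others. The share of long 3′ fragments among tRNA-derived reads was 18.3% in library 1, against 2.02% to 3.56% in the others. miR-338-3p stood at a variance-stabilised value of 1.89 in library 4 and had no read in the others.

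Both entries whose step from blastocyst to derived cells differed between IVF and NT were absent from the NT libraries. The tRF-1 entry differed by -4.39 (limma adjusted p = 0.00081) and the piRNA entry of chromosome 10 by -2.07 (adjusted p = 0.013). Both had reads in 3 of 3 IVF blastocyst libraries and in none of 4 NT blastocyst libraries. They were tested only through those 3 libraries, so these p-values are no independent support.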

How the results depend on the processing

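On the deposited scale 1443 entries were called. The count was 800 with a filter of 2 log2 units, and 172 to 1492 without single libraries. It was 186, 172 and 179 without blastocyst library 2, 3 or 4, where the filter of 3 libraries drops entries seen only in blastocysts. The 128 miRNA calls became 273 after median centring and 198 after quantile normalisation. As CPM of miRNA reads, adjusted over miRNA entries alone, they became 112. Without blastocyst library 2, 3 or 4 they became 61, 62 and 63 (61 to 186 over all libraries left out). With library weights they became 5, none higher, but that estimate stopped before convergence and gave blastocysts weights under 0.02 and derived cells weights over 27. Calls split into 14.1% higher on the deposited scale, 74.2% after median centring and 50.5% after quantile normalisation.

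The 2 calls between the IVF and NT steps became 1 with a stricter filter, after median centring and with the replicate block, 0 after quantile normalisation and in the fit over all 12 groups (314 and 33 at an unadjusted limma p under 0.05), and 0 to 6 without single libraries (0 without blastocyst library 3 or 4, with 314 and 482 unadjusted, 1 without derived-cell library 1, 2 or 3, and 6 without library 4). Leaving out any blastocyst library drops the 2 called entries below the filter, so the counts without blastocyst libraries concern other entries. Same-numbered libraries did not deviate together (r = -0.073, -0.13 and 0.076 for numbers 2, 3 and 4). These few values cannot tell whether same-numbered libraries shared a source or batch. With the replicate block 1431 entries and 128 miRNA entries were called.

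As a share of detected entries, derived cells minus blastocysts was 25.3 points for miRNA, -52.4 for piRNA, -2.33 for protein-coding, 2.20 for rRNA, 0.649 for the mixed class, and, with the sign turned, 15.5 for tRNA-derived, 5.17 for other-species miRNA, 3.09 for snRNA and 2.84 for snoRNA entries (exact permutation, adjusted p = 0.0286 for each). The mixed class, at 0.142 points of reads, was -0.235 without blastocyst library 3, -0.107 without derived-cell library 2 (-0.235 to 0.534 over all libraries left out) and -0.232 without its most abundant entry. Without the most abundant entry of each class or type, rRNA was -0.452, 3p-tRF -0.00267 and misc-tRF 2.56 points. Among named miRNAs, miR-20a turned to 2.00 after median centring, 0.18 with weights, 0.06 with the replicate block, and 0.06 and 0.84 without derived-cell library 1 or 2 (-1.0 to 0.84 over all libraries left out). miR-378 turned to 1.87 after median centring and miR-19a to -0.20 after quantile normalisation. As CPM of miRNA reads miR-19b was -1.01, miR-19a -1.86 and miR-503-5p -0.31. Each cause was not tested. The recovered reads limit low entries: an entry at 0 in the shallowest library, with 247926 reads, could hold up to 0.00121% of its reads.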
